A study of Mus musculus with 5 samples.

Results

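The potassium channel genes of the mouse hippocampus were described across neuron and glial nuclei. A gene was taken as a member when its symbol in the deposited gene list started with Kcn, did not end in os or Rik, and had at least 50 unique molecular identifiers (UMIs, the counts of distinct RNA molecules) summed over the 5 RNA matrices. Of 32285 gene rows, 97 carried such a symbol and 84 reached that minimum. The members just inside it were Kcna5 with 59 UMIs, Kcnk18 with 70 and Kcnj5 with 88, and the genes just outside were Kcne3 with 42, Kcna10 with 39 and Kcnj8 with 25. The symbol rule also takes in Kcnq1ot1, a long noncoding RNA made from the opposite strand of Kcnq1, and Kcnmb4os1 and Kcnmb4os2, which lie over Kcnmb4. The sources used here do not state whether strand was counted. How reads were divided between these 3 genes and their partners was not checked. Kcnq1ot1, which lies within Kcnq1, had 466382 UMIs and Kcnq1 had 1857.

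The samples were 5 single-nucleus multiome libraries of hippocampus, each measuring RNA and open chromatin in the same nuclei. One library came from wild type mice and one from 5xFAD mice, a transgenic line that carries mutant human transgenes driven by the Thy1 promoter and forms amyloid plaques. The other 3 were labelled as 5xFAD with a knockout of MAGL in astrocytes, in neurons, or globally. MAGL, encoded by Mgll, is the enzyme that degrades the endocannabinoid 2-arachidonoylglycerol. The labels give no age, no sex, no Cre driver and no number of animals per library, and all 5 carry the same batch name. With 1 library per group there was no replicate and no test, and every interval below is an exact 95% interval that covers counting error only.

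Potassium channels let potassium leave or enter the cell and so set the resting potential, end action potentials and control how often a neuron fires. Voltage-gated Kv channels open on depolarisation, the channels gated by calcium or sodium follow firing, inward rectifiers and 2-pore channels work near rest, and auxiliary subunits change the gating or trafficking of the pore. In glia, inward rectifiers are known for taking up the potassium that neurons release. Many of these genes are among the longest expressed in brain, which matters in nuclear RNA because unspliced transcripts are counted along the whole gene.

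Before clustering, the libraries held 4050 to 7498 nuclei with median depths of 14068.5 to 17353.5 UMIs. Pairs of libraries shared 29 to 63 barcodes, at most 1.16% of the smaller library. Clusters were built without any Kcn gene and named from other marker genes, giving 13 classes that were compared, while 25.9% to 28.8% of the nuclei of a library stayed unnamed. Dentate granule nuclei were the most numerous (1153 to 2066 per library), and the smallest classes were astrocytes (29 to 70) and vascular or fibroblast nuclei (10 to 15). Thy1, the gene whose promoter drives the 5xFAD transgenes, stood at 34.7 CPM in granule nuclei of the wild type library and at 140.7 to 249.2 in the other 4, where CPM is the gene's share of the UMIs of a class scaled to 1e6. Mgll RNA was not lost in the libraries labelled MAGL-KO: in granule nuclei it stood at 86.2 CPM in the wild type, 83.1 in 5xFAD, and 114.3, 117.2 and 106.2 in the astrocyte, neuron and global knockout libraries, and in astrocytes at 346.0 CPM in 5xFAD and 482.6 in the astrocyte knockout library. A deleted exon need not remove nuclear reads from the rest of a gene, so these values neither check the deletion nor go into any direction below, and the groups are called by their labels. Each library held both Xist-positive nuclei and nuclei carrying Y-linked transcripts, hence both sexes, and the Xist share of the nuclei that could be called ran from 42.2% in 5xFAD to 83.1% in the library labelled neuron MAGL-KO.

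The members together took 2.83% of all UMIs in the wild type library, 2.85% in 5xFAD, and 2.47%, 2.42% and 2.59% in the astrocyte, neuron and global MAGL-KO libraries. Much of this came from one gene. Kcnip4, an auxiliary subunit that binds Kv4 channels and lies over 1135 kb of chromosome 5, gave 6750607 UMIs, and the 14 auxiliary members held 44.2% of all member UMIs. Kv4 channels followed with 15.8%. The 5 Kv7 channel genes held 9.78%, and the noncoding Kcnq1ot1, which the symbol rule places with them, another 2.80%, while Kv1, silent Kv and 2-pore channels held under 1% each. Per kilobase of gene the order changed: Kcnip4 had 5946 UMIs per kb, the short gene Kcna1 5800, Kcnq1ot1 5010 and Kcnd2 4786. Levels are therefore compared below within a gene across classes, as CPM of the class, averaged over the 5 libraries and given with the lowest and highest library.

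By class, members made up 3.01% of UMIs in CA1, 2.98% in dentate granule and 2.94% in subicular nuclei, against 1.48% in cortical deep-layer and 1.73% in Lhx6-lineage inhibitory nuclei. Oligodendrocyte precursors stood at 1.30%, and astrocytes, oligodendrocytes, vascular nuclei and microglia at 0.444%, 0.340%, 0.251% and 0.200%. For 39 members the highest mean level was in an excitatory class, for 13 in an inhibitory class and for 32 in a glial or vascular class, of which 21 rested on at least 10 UMIs there. Over 21093 genes the shares led by these kinds of class were 20.75%, 8.145% and 71.1%, beside 46.4%, 15.5% and 38.1% of the members. Glial and vascular classes held 189698 to 4193732 UMIs each, and neuron classes 10577918 to 105103519. A shallow class can lead on few UMIs, as vascular nuclei did for Kcna5 on 1 UMI. The part of depth in these shares was not tested. The leading class lay above the next in every library, with ranges that do not overlap, for 24 of the 84 members (28.6%), beside 16.54% of the 21093 genes. Of the members, 9 were at or over 10 CPM in every class and 22 were under 10 CPM in all of them. Neither of these last counts was made over all genes, so nothing particular to the members is read from them.

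**Figure D1:**
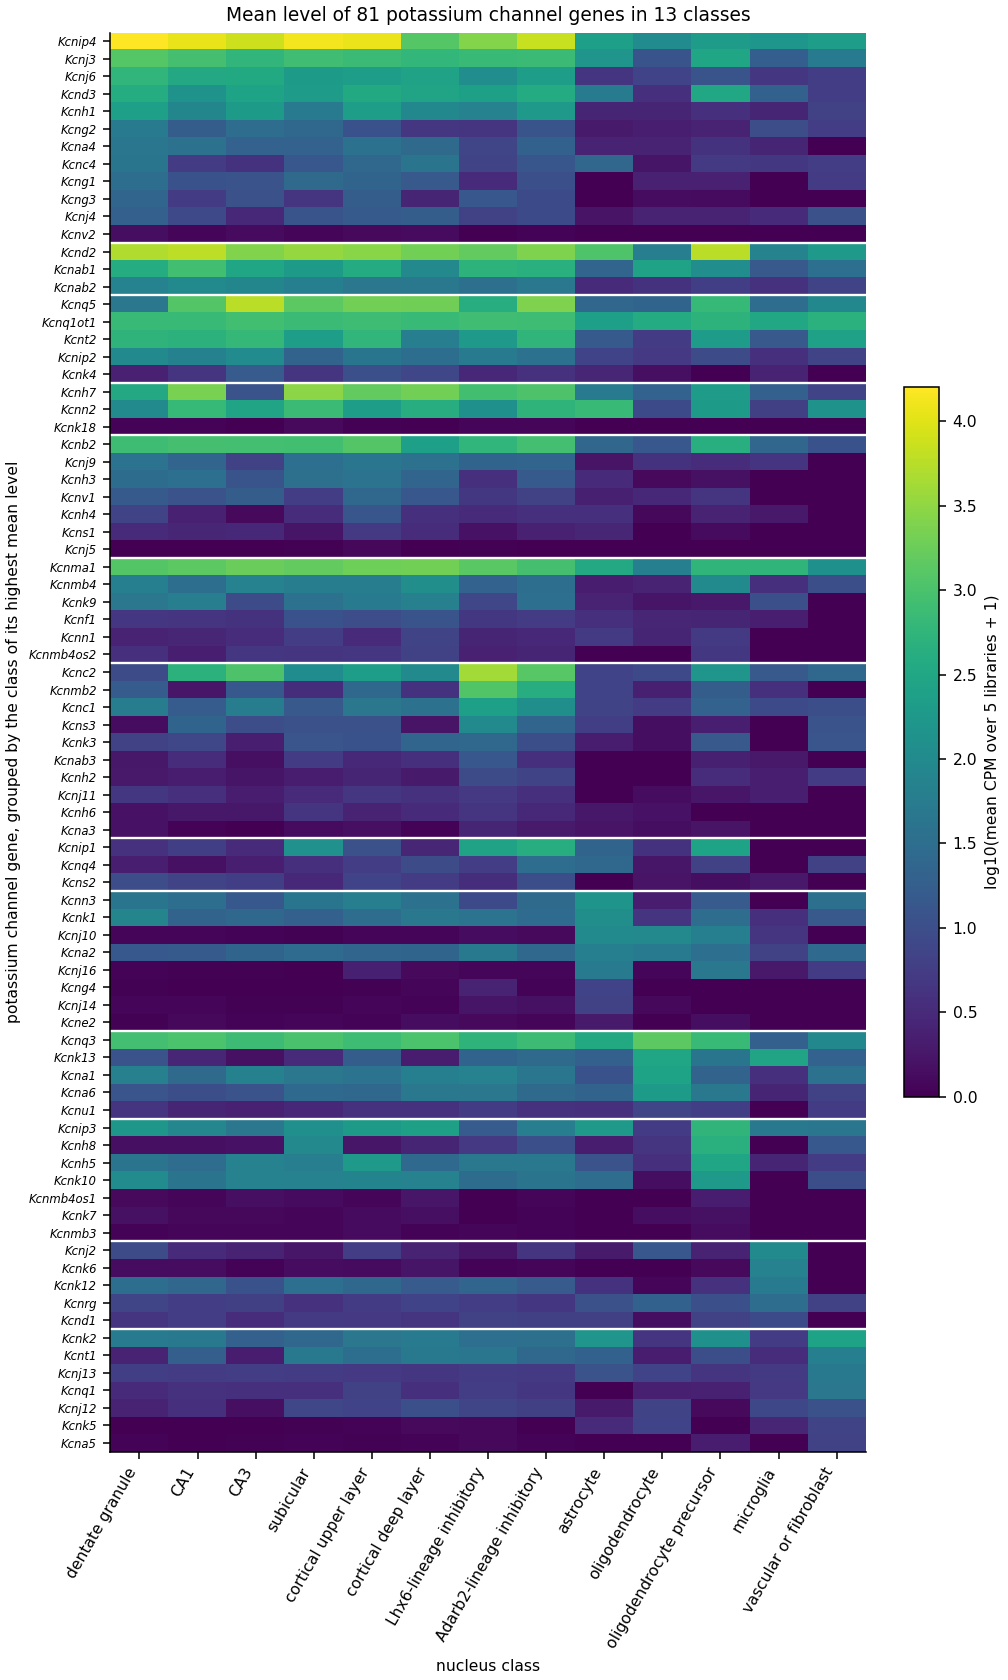
Rows are potassium channel genes, grouped by the class of their highest mean level, and columns are the 13 classes; colour is log10 of the mean CPM over 5 libraries with 1 added. Kcnip4 and Kcnd2 are high through most neuron classes, while Kcnc2 and Kcnmb2 are highest in Lhx6-lineage inhibitory, Kcnq5 in CA3 and Kcnk6 in microglial nuclei.

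RNA from broken cells can add neuronal reads to glial nuclei. The level of 9 neuronal genes in each glial class, as a share of their level in excitatory neurons, had a median of 3.99% in astrocytes, 1.94% in oligodendrocytes, 7.49% in precursors, 3.55% in microglia and 7.77% in vascular nuclei. Some of the 9 are also made by glia, such as Gria2 in astrocytes (75.8%) and precursors (57.1%), so the highest share is a strict bar. Among members with at least 10 UMIs in the class, 15 of 32 in astrocytes, 16 of 39 in oligodendrocytes, 30 of 49 in precursors, 8 of 19 in microglia and 4 of 12 in vascular nuclei lay above all 9 of these genes. Over all genes with as many UMIs the shares were higher, at 82.63%, 93.96%, 89.11%, 95.92% and 92.87%, so for a member such a position sets it apart from the 9 genes and not from genes in general.

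Single inward rectifiers differed sharply between glia and neurons, although the family's sum was higher in neurons. Kcnj3 led the sum in every neuron class, and also in astrocytes (47.2% of it), precursors (69.6%) and vascular nuclei (39.7%). The part of neuronal RNA in these glial and vascular Kcnj3 levels was not tested. Kcnj10 encodes Kir4.1, the main potassium uptake channel of astrocytes. Its level in astrocytes was 94.0 CPM in the wild type, 66.7 in 5xFAD, and 88.8, 112.6 and 132.6 in the astrocyte, neuron and global MAGL-KO libraries. Oligodendrocytes had nearly as much, with a mean of 92.4 CPM (75.9 to 107.4), and the ranges of both classes overlap; precursors had 64.2 CPM (38.8 to 90.9). In dentate granule nuclei the mean Kcnj10 level was 0.120 CPM from 12 UMIs, and in CA1 0.149 CPM from 10. Kcnj16, whose product Kir5.1 pairs with Kir4.1, was found in astrocytes at 52.0 CPM (29.4 to 72.1) and in precursors at 46.5 CPM (34.7 to 60.8), but oligodendrocytes held a single UMI (0.194 CPM), so the pair parted there. Kcnj2, which encodes the strong inward rectifier Kir2.1, was highest in microglia at 103.2 CPM. The microglial Kcnj2 value was 21.0 CPM in the wild type library and 101.5, 130.0, 128.2 and 135.5 in the 5xFAD and the 3 knockout libraries, from 105 UMIs in all, so the wild type library stood apart on few counts. The microglial class joins 2 clusters, the second with Apoe and Trem2 among its leading genes. In the order of libraries just used, 41, 34, 47, 14 and 45 nuclei lay in the first and 2, 51, 75, 38 and 52 in the second, so the wild type nuclei were nearly all of the first cluster, and the part of this in the Kcnj2 levels was not tested.

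Kcnj3, Kcnj6 and Kcnj9 encode subunits of G protein-gated GIRK channels. Kcnj3 (GIRK1) was highest in granule nuclei at 1256 CPM (1026 to 1446), ahead of CA1 at 916.7, and Kcnj6 (GIRK2) at 575.4 CPM (554.6 to 595.6), ahead of CA3 at 357.0 (341.5 to 366.8). Kcnj6 varied little, and in every library granule nuclei lay above every other class. Kcnj9 (GIRK3) was led by cortical upper-layer nuclei at 43.3 CPM (38.1 to 53.0) with granule nuclei at 38.2 (32.3 to 43.1), and the ranges overlap. The Kcnj9 and Kcnj10 genes lie 11.89 kb apart on chromosome 1, on opposite strands, and Kcnj9 gave a single UMI in astrocytes. Of 5 pairs of members that overlap or lie within 50 kb, 1 had the same leading class, Kcnmb4 with Kcnmb4os2. These genes overlap, and how reads were divided between them was not checked. Pairs were not counted over all genes, so nothing particular to the members is read from this count. The other separate pair was Kcnj16 and Kcnj2 on chromosome 11, 38.2 kb apart, with astrocytes and microglia leading.

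The promoters of these neighbours are shown because open chromatin at them was measured in the same nuclei. Each line holds the 250 bases before the RefSeq start on GRCm38.p6, 5′ to 3′ on the gene's strand, with capitals for a match on either strand to the motifs listed further below. Kcnj10 lies at chr1:172340960-172341209 (plus strand), Kcnj9 at chr1:172329323-172329572 (minus strand) and Kcnj2 at chr11:111065914-111066163 (plus strand).
Kcnj10: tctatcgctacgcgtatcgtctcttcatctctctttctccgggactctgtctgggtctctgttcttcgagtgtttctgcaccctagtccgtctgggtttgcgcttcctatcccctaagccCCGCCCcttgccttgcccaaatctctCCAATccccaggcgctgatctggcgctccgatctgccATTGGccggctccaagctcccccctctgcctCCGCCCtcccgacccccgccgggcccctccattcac
Kcnj9: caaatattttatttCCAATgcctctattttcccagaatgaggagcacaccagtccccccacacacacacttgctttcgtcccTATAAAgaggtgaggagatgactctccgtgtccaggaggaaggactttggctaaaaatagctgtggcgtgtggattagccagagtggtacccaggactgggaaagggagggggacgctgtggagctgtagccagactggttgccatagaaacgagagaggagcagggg
Kcnj2: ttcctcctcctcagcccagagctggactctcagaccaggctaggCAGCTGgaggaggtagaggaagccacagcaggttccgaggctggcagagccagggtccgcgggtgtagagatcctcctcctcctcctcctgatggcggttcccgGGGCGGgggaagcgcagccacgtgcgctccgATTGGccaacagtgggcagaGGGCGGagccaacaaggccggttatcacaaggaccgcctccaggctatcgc
The Kcnj10 stretch had 62.0% G and C bases and 17 CpG pairs, with GC boxes 130 and 36 bases and CCAAT boxes 104 and 67 bases before the start. Kcnj9 had 52.0% G and C, 5 CpG pairs, a CCAAT box at 236 and a TATA box at 168 bases, and Kcnj2 had 65.6%, 14 CpG pairs, GC boxes at 102 and 51, a CCAAT box at 71 and a CAGCTG E-box at 206. A match is a description of letters and not a bound site.

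Cut sites in peaks over the start gave the same order as the RNA for Kcnj10 and Kcnj9. Scaled like CPM to the cut sites of the class, the Kcnj10 start had 89.1, 64.7, 85.7, 73.2 and 116.3 in the astrocytes of the wild type, 5xFAD, and astrocyte, neuron and global MAGL-KO libraries. The mean was 85.8 in astrocytes, 80.8 in oligodendrocytes (74.4 to 85.5), 56.1 in precursors and 29.0 in microglia, against 5.78 in granule nuclei (5.08 to 6.83). Astrocytes, oligodendrocytes and precursors thus all lay above granule nuclei in every library at Kcnj10. At the Kcnj9 start the means were 25.0 per 1e6 in upper-layer nuclei (22.1 to 28.3), 22.9 in granule nuclei and 2.69 in astrocytes (8 cut sites). Kcnj2 parted from its RNA: the microglial mean was 86.1 cut sites per 1e6 (74.0 to 113.9) but oligodendrocytes had 76.2 (67.1 to 95.9) where the RNA level was 12.8 CPM (5.23 to 21.4).

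Kv1 channels, which sit at axons and their juxtaparanodes and dampen repetitive firing, were summed to 519.3 CPM (424.3 to 655.3) in oligodendrocytes, against 175.9 (162.6 to 184.8) in Lhx6-lineage inhibitory nuclei, the highest neuron class. Kcna1 (Kv1.1) had 233.9 CPM in the oligodendrocytes of the wild type, 209.3 in 5xFAD, and 395.0, 297.7 and 235.5 in the astrocyte, neuron and global MAGL-KO libraries, with a mean of 274.3. The next class, Lhx6-lineage nuclei, had 72.5 CPM (64.7 to 79.3), below each oligodendrocyte value. Kcna6 (Kv1.6) had 229.4, 225.8, 193.6, 173.0 and 138.5 CPM in oligodendrocytes in the same order of libraries, above cortical deep-layer nuclei at 46.7 CPM (38.5 to 50.9). Precursors stood lower for both genes, at 20.7 CPM for Kcna1 and 46.5 CPM for Kcna6. Kcna4 was led by granule nuclei at 43.0 CPM (36.8 to 50.3), with CA1 at 36.3 and overlapping ranges.

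The Kcna6 promoter, at chr6:126740675-126740924 (minus strand, GRCm38.p6, RefSeq), is shown as one with none of the searched motifs in its 250 bases, so it has no capitals.
Kcna6: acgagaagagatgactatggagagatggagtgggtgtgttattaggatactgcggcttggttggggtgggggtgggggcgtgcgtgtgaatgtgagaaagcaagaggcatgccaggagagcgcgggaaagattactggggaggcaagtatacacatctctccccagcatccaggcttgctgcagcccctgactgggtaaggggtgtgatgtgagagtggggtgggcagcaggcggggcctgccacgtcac
It had 58.8% G and C bases and 8 CpG pairs. Cut sites at the Kcna6 start were 39.7 per 1e6 in oligodendrocytes (29.6 to 46.5) and 32.7 in precursors (22.3 to 46.2), although the RNA level of precursors lay well below that of oligodendrocytes. Granule nuclei had 17.0 and astrocytes 9.26.

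**Figure D2:**
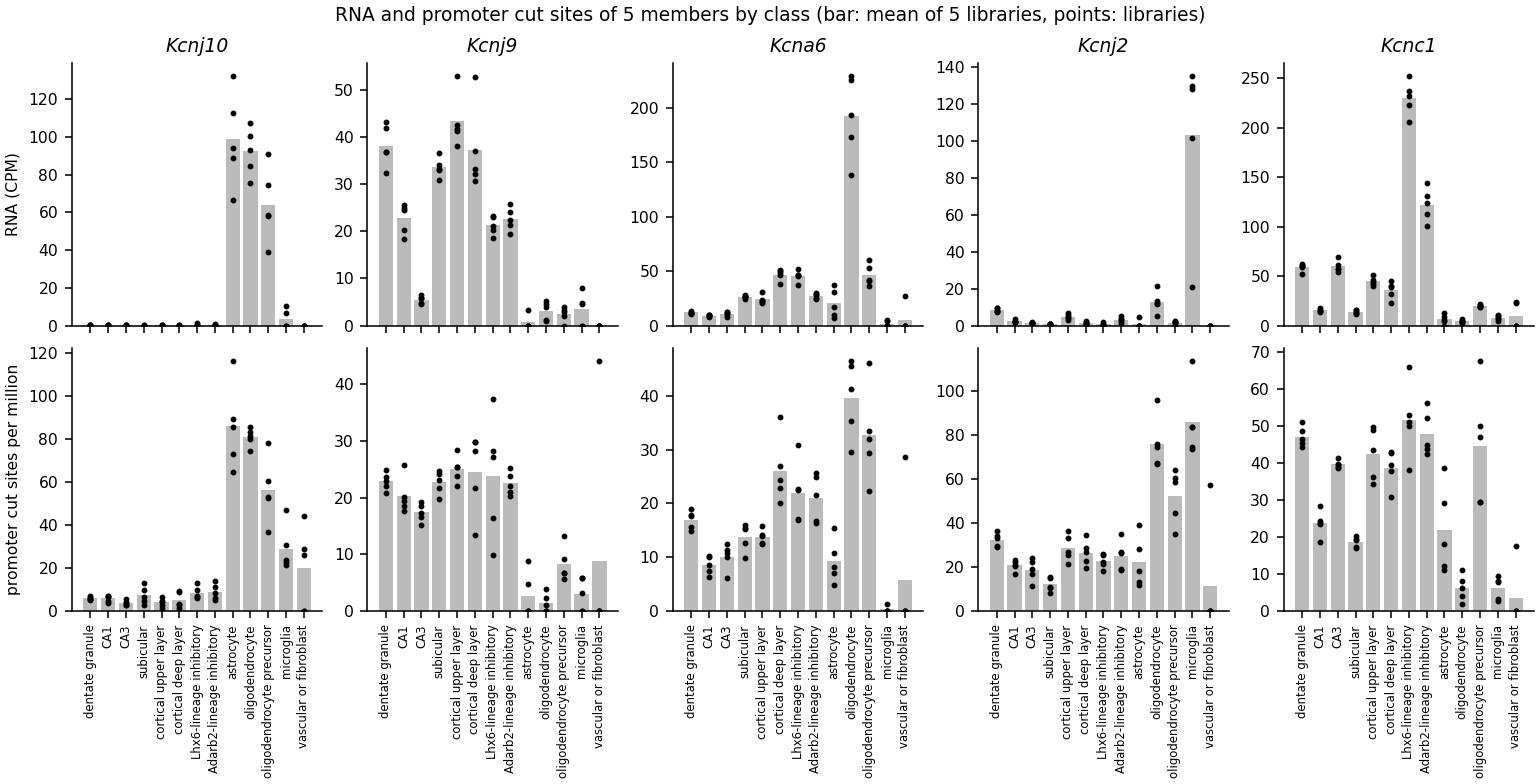
RNA level in CPM (top row) and promoter cut sites per 1e6 (bottom row) of Kcnj10, Kcnj9, Kcna6, Kcnj2 and Kcnc1 in the 13 classes; bars are means of 5 libraries and points are libraries. Kcnj10 is highest in astrocytes and oligodendrocytes in both rows, while the cut sites of Kcnj2 in oligodendrocytes and of Kcnc1 in granule nuclei are near the highest class where their RNA is not.

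Kv3 channels allow the short spikes of fast-firing interneurons. Kcnc2 (Kv3.2) stood at 4086, 3828, 3968, 4055 and 4423 CPM in the Lhx6-lineage inhibitory nuclei of the wild type, 5xFAD, and astrocyte, neuron and global MAGL-KO libraries. This lineage is known to give parvalbumin and somatostatin cells. Adarb2-lineage inhibitory nuclei had 1302 CPM (1178 to 1405) and CA3 1062 CPM (964.2 to 1209), while granule nuclei had 8.08 (4.01 to 10.7). Kcnc1 (Kv3.1) followed the same order at 229.9 CPM (205.2 to 252.5) in Lhx6-lineage and 122.3 (100.4 to 143.9) in Adarb2-lineage nuclei. Kcns3, a silent Kv9.3 subunit that joins Kv2 channels and marks parvalbumin cells in cortex, was at 99.9 CPM (82.7 to 107.3) in Lhx6-lineage and 22.5 (19.0 to 24.6) in Adarb2-lineage nuclei. Kcng2, another silent subunit, was led by granule nuclei at 51.2 CPM (43.2 to 57.5).

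Kv2 channels carry the delayed rectifier current of cell bodies. Kcnb2 (Kv2.2) was highest in cortical upper-layer nuclei at 1198 CPM (867.7 to 1427) with CA1 at 926.2, and the ranges overlap. Kv4 channels carry the A-type current that limits back-propagating spikes in dendrites, and Kcnd2 (Kv4.2) was nearly all of it by UMIs. Kcnd2 had 6956, 7701, 5056, 4704 and 5734 CPM in CA1 in the wild type, 5xFAD, and astrocyte, neuron and global MAGL-KO libraries. Oligodendrocyte precursors had almost the same, 5795 CPM (5389 to 6162), and granule nuclei 5096 (4409 to 5757). Mature oligodendrocytes had 62.5 CPM (35.3 to 97.9), which is the lowest of the 13 classes. Kcnd3 (Kv4.3) was close in granule (393.7 CPM, 351.6 to 434.1) and Adarb2-lineage nuclei (385.0, 355.1 to 435.5).

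Kv7 channels carry the M-current, a slow brake on firing that muscarinic receptors release. Kcnq5 (Kv7.5) divided the hippocampal fields: CA3 had 5805, 5318, 6411, 5622 and 6144 CPM in the wild type, 5xFAD, and astrocyte, neuron and global MAGL-KO libraries, and granule nuclei 39.6, 50.5, 39.2, 45.2 and 48.9. CA1 stood between at 1207 CPM (966.3 to 1457), as did subicular nuclei at 1401 (1228 to 1593). Every CA3 value lay above every value of the next class, Adarb2-lineage nuclei (2428 CPM, 2226 to 2734). Kcnq3 (Kv7.3) was highest in oligodendrocytes at 1382 CPM (1289 to 1523), ahead of cortical deep-layer nuclei at 1026 (882.6 to 1211), with precursors at 668.8. Cut sites at the Kcnq3 start were also highest in oligodendrocytes, 103.3 per 1e6 (94.3 to 116.9), against 55.0 in precursors (33.9 to 70.9) and 32.4 in granule nuclei (28.4 to 35.6).

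**Figure D3:**
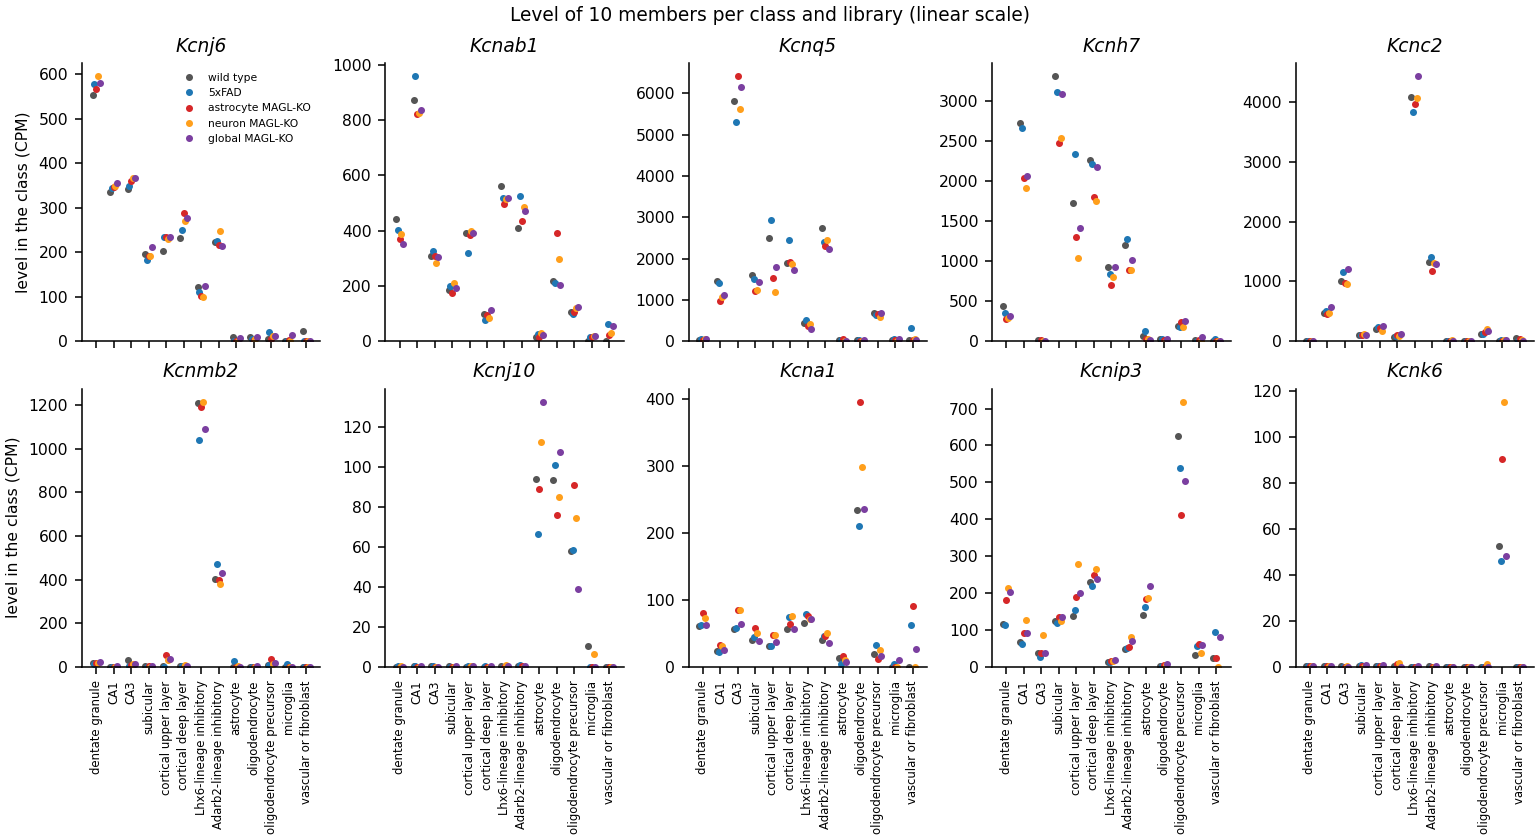
Level of 10 potassium channel genes in CPM (y axis, linear) in the 13 classes (x axis); each point is 1 library, coloured by group. All 5 points of Kcnq5 in CA3, Kcnc2 in Lhx6-lineage and Kcna1 in oligodendrocyte nuclei lie above every other class, while Kcnj10 overlaps between astrocytes and oligodendrocytes.

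Among ether-a-go-go channels, Kcnh7 (Erg3) was high in subicular (2902 CPM, 2478 to 3303) and CA1 nuclei (2276, 1906 to 2724) and nearly missing in CA3, at 10.7 CPM (4.78 to 18.8). Granule nuclei lay between at 337.3 CPM (283.2 to 442.6). Kcnh8 (Elk3) was highest in oligodendrocyte precursors, at 579.9, 478.2, 313.2, 488.0 and 483.9 CPM in the wild type, 5xFAD, and astrocyte, neuron and global MAGL-KO libraries, against 92.1 CPM (62.9 to 119.9) in subicular nuclei, the next class. The subicular class joins a cluster of 280 nuclei whose first leading gene was Kcnh8 with a larger one of 706 nuclei, so its mean hides a subset with more Kcnh8. Kcnh5 (Eag2) was also highest in precursors at 295.3 CPM (272.8 to 316.6), but its range overlaps upper-layer nuclei (182.0, 74.7 to 383.7). Kcnh1 (Eag1) was spread over granule (237.3 CPM) and upper-layer nuclei (222.9).

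The channels gated by calcium or sodium end bursts and shape the afterhyperpolarisation. Kcnma1, the BK pore, was at 2041 CPM (1974 to 2147) in cortical deep-layer nuclei, 1769 (1718 to 1825) in CA3 and 1184 (1139 to 1240) in granule nuclei. Its accessory subunit Kcnmb2, which inactivates BK, had 1210, 1038, 1191, 1214 and 1092 CPM in Lhx6-lineage nuclei in the order of libraries used above, against 416.0 (379.1 to 469.1) in Adarb2-lineage nuclei. Kcnmb2 was thus restricted where the pore was broad. The small-conductance channel gene Kcnn3 led in astrocytes at 147.1 CPM (111.0 to 168.6), above upper-layer nuclei at 61.1 (37.7 to 82.9), and Kcnn2 had 680.8 CPM (479.7 to 850.3) there, close to 738.5 in subicular nuclei. Kcnt2, a sodium-activated channel, was at 636.8 CPM (563.8 to 727.7) in CA3 with upper-layer nuclei at 581.6 and overlapping ranges.

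The 2-pore channels carry background leak. Kcnk13 (THIK-1), which sets the resting potential and surveillance of microglia, had 282.8 CPM in microglia (231.2 to 377.5) and as much in oligodendrocytes, 295.2 (240.7 to 368.6), against 41.2 in precursors. Cut sites at the Kcnk13 start were likewise close, 25.3 per 1e6 in oligodendrocytes and 24.3 in microglia, against 7.47 in granule nuclei. Kcnk6 (TWIK-2), known from macrophages for potassium efflux, was at 52.5, 46.1, 90.6, 115.4 and 48.4 CPM in the microglia of the wild type, 5xFAD, and astrocyte, neuron and global MAGL-KO libraries, from 66 UMIs. No other class had a mean above 0.724 CPM for Kcnk6, and its start had 33.9 cut sites per 1e6 in microglia (20.4 to 45.4) and 4.27 in granule nuclei. Kcnk10 (TREK-2) was highest in precursors at 181.8 CPM (145.5 to 210.3), above granule nuclei at 106.1 (98.2 to 120.9). Kcnk2 (TREK-1) reached 268.7 CPM (119.9 to 456.3) in vascular or fibroblast nuclei from 51 UMIs, and its range there overlaps astrocytes at 155.9 (109.2 to 220.5).

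Of the auxiliary subunits, Kcnip4 was highest in granule nuclei at 15600 CPM (14420 to 16610), followed by subicular nuclei at 13570 (11730 to 16030), cortical upper-layer nuclei at 11760 and CA1 at 11350. Cortical deep-layer nuclei had 1225 CPM (982.0 to 1603) and Lhx6-lineage nuclei 2626 (1974 to 3319), so the pattern of Kcnip4 was not that of the Kv4 channels it binds. Kcnip3 (KChIP3, also called DREAM or calsenilin) led in precursors, at 626.6, 538.3, 412.2, 718.2 and 504.3 CPM, above cortical deep-layer nuclei at 240.4 (219.6 to 266.0). Precursors therefore held high levels of both a Kv4 pore (Kcnd2) and one of its KChIP partners. Kcnip1 led in Adarb2-lineage nuclei at 408.8 CPM (316.4 to 495.4), with precursors at 272.1 and overlapping ranges. Kcnab1, a Kv1 beta subunit, was highest in CA1 at 862.6 CPM (821.1 to 958.0), above Lhx6-lineage nuclei at 522.3 (498.3 to 562.3) and granule nuclei at 390.6.

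Small classes outside the comparison held high levels of some members. In 49 choroid plexus or ependymal nuclei, Kcnj13 (Kir7.1, an epithelial channel) had 173.0 CPM (124.2 to 250.8) from 224 UMIs, and Kcne2, a beta subunit known from choroid plexus epithelium, had 66.0 CPM (21.4 to 109.9) from 73 UMIs. In 33 Cajal-Retzius nuclei, Kcnh7 reached 8619 CPM (6602 to 10120) and Kcnb2 7105 CPM (4903 to 9750), above any of the 13 classes compared for both genes.

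The start, here and above, is the one listed with the counts, which was within 1 base of the gene's 5′ end for 50 of the 84 members. A listed peak overlapped the window around the start in all 5 libraries for 54 of the 84. Promoter cut sites were highest in the class that led the RNA for 24 of these 54, and in a class of the same broad kind (excitatory, inhibitory, or glial and vascular) for 35. These 3 counts were not made over all genes, so nothing particular to the members is read from them. Kcnc1 was among the 24, but with close values and overlapping ranges. Lhx6-lineage nuclei had 51.6 cut sites per 1e6 (38.0 to 65.9), granule nuclei 47.2 (44.3 to 51.1) and precursors 44.7 (29.3 to 67.6). Its RNA in granule nuclei was 58.8 CPM, well under the Lhx6-lineage level. A RefSeq promoter was matched for 59 members, and for 28 of them such a peak lay over it in all 5 libraries. Motifs were counted in the 250 bases of each promoter on both strands, and no matches overlapped in the printed sequences. The GC box GGGCGG was in 30 of the 59 (50.8%), against 32.74% of 32851 promoters of that length, and the CCAAT box CCAAT in 17 (28.8%) against 33.85%. TATAAA was in 2 (3.39%, against 12.37%), the SOX core ACAAAG in 3 (5.08%, 16.46%), the E-box CAGCTG in 11 (18.6%, 13.0%) and the AP-1 site TGANTCA in 1 (1.69%, 6.749%). The PU.1 core GAGGAAGT and the CRE TGACGTCA were in none of the 59, beside 2.441% and 1.546% of all promoters.

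The libraries were then compared in pairs, first 5xFAD against wild type and then each library labelled MAGL-KO against 5xFAD. A gene entered with at least 100 UMIs over both libraries, its log2 ratio was taken with 5 CPM added to each value, and a fold of 1.5 in either direction was the size marked. The 3 knockout comparisons share the 5xFAD library, so they are not independent of each other. Between 5xFAD and wild type, few genes of any kind passed the fold in granule and CA1 nuclei, and no member did. In granule nuclei 0 of 57 members passed the fold, with log2 ratios from -0.39 to 0.32 and a median of -0.06; over all genes 0.017% passed upwards and 0.153% downwards, around a median of 0.00. In CA1 0 of 49 passed (-0.44 to 0.31), beside 0.322% and 0.578% of all genes. Of 32 partner genes that were also listed (Dpp and Hcn genes, sodium pumps and others that move or anchor potassium channels), 24 were measured in granule nuclei and 23 in CA1, and 0 passed in either. In astrocytes 2 of 8 were higher (Dlg2 and Slc24a2; 2.82% of all genes) and 1 lower (Atp1b1; 2.51%), in microglia 1 of 3 was higher (Slc12a2; 12.5%), and in oligodendrocytes 1 of 11 was higher (1.8%) and 2 lower (Dpp10 and Atp1b1; 1.46%). Dpp10, an auxiliary Kv4 subunit, was lower in 5xFAD in CA3 (23.1 against 94.4 CPM, log2 ratio -1.82) and in oligodendrocytes (35.9 against 79.8, -1.05). Against 5xFAD it was the only partner gene past the fold in CA1 and CA3, higher in all 3 knockout libraries. Its values in the astrocyte, neuron and global knockout libraries were 424.6, 301.5 and 481.7 CPM in CA1, beside 163.5 in 5xFAD and 155.9 in the wild type, and 86.8, 68.9 and 78.9 CPM in CA3, where the 5xFAD library alone was low. In granule nuclei Dpp10 was lower in the neuron knockout library (-0.70).

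In CA3, 2 of 42 members were lower in 5xFAD, against 0.959% of all genes, and none higher (0.256%). Kcnmb2 stood at 28.9 CPM in the wild type library and 1.61, 8.91, 12.1 and 15.0 in 5xFAD and the astrocyte, neuron and global knockout libraries, which for 5xFAD against wild type is a log2 ratio of -2.36 (-2.60 to -2.03). Only 6.17% of CA3 nuclei held a Kcnmb2 UMI, and with nuclei assigned by marker score in place of clusters the log2 ratio was 0.01. Kcnh7 was at 18.8 CPM in the wild type and 6.62 in 5xFAD, a log2 ratio of -1.03 (-1.37 to -0.67). Both values are far below its mean of 2276 CPM in CA1. Carry-over of RNA between neuron classes was not measured, which limits such low values here and in other neuron classes. In Lhx6-lineage nuclei 1 of 38 members was higher (0.691% of all genes) and 0 lower (0.514%): Kcnab2, a Kv1 beta subunit, at 50.4 against 30.5 CPM, log2 ratio 0.65 (0.31 to 0.98). None of the members compared passed in Adarb2-lineage nuclei (46 members; 0.559% of all genes higher and 0.785% lower) or in subicular nuclei (46; 0.697% and 0.448%). The same held in astrocytes (6; 2.82% and 2.51%), oligodendrocytes (9; 1.8% and 1.46%) and precursors (21; 1.71% and 1.33%). In cortical upper-layer nuclei Kcnh5 was higher and Kcng1 lower of 45 members (0.996% and 2.19% of all genes). Kcnh5 there was at 383.7 CPM in 5xFAD against 164.9 in the wild type and 74.7 to 157.3 in the other libraries, so the 5xFAD library alone stood out. In deep-layer nuclei 1 of 37 members was higher and 0 lower (1.09% and 1.08%), Kcnc1 at 39.5 against 23.0 CPM (0.67, 0.22 to 1.12). Microglia had enough UMIs for 2 members, and both were higher in 5xFAD, where 12.5% of all genes passed upwards and 11.3% downwards. Kcnma1 was at 594.9 against 241.7 CPM (log2 ratio 1.28, 0.64 to 1.97) and Kcnq1ot1 at 442.8 against 241.7 (0.86, 0.20 to 1.57), on 43 wild type and 85 5xFAD nuclei. These nuclei sit in different clusters: 41 and 2 of the wild type and 34 and 51 of the 5xFAD nuclei lay in the first and second microglial cluster described above, and the part of this in the ratios was not tested. With marker-score classes the Kcnma1 ratio was -0.76.

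**Figure D4:**
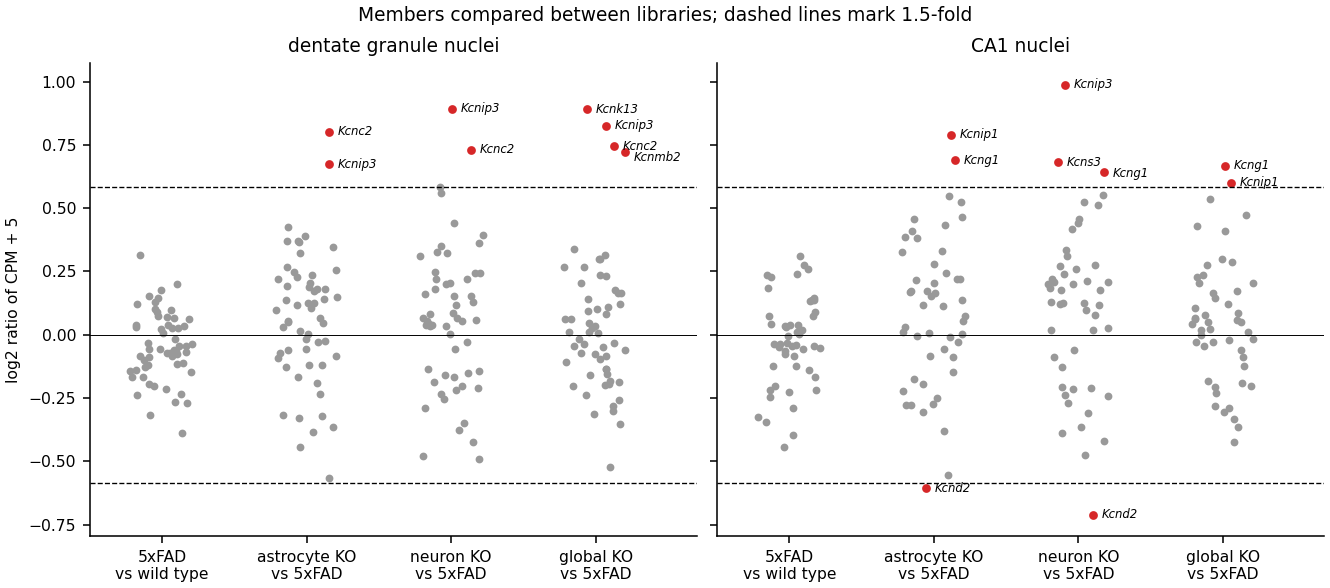
Log2 ratio of CPM with 5 added (y axis) for each comparison (x axis) in dentate granule and CA1 nuclei; each point is a member with at least 100 UMIs, and those past 1.5-fold (dashed lines) are red and named. No member passes for 5xFAD against wild type, and Kcnip3 and Kcnc2 pass in granule nuclei of all 3 knockout comparisons.

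The libraries labelled MAGL-KO differed more from 5xFAD. In granule nuclei 2 of 57 members were higher and 0 lower in the astrocyte knockout library (all genes 3.25% and 0.268%), 2 of 56 and 0 in the neuron knockout library (3.42% and 0.28%), and 4 of 57 and 0 in the global knockout library (1.57% and 0.209%). Kcnip3 and Kcnc2 passed in all 3. Kcnip3 stood at 116.9 CPM in the wild type, 112.3 in 5xFAD, and 182.1, 212.6 and 202.7 in the astrocyte, neuron and global knockout libraries, so both libraries without a knockout lay below all 3 others. The log2 ratios against 5xFAD were 0.67 (0.60 to 0.75), 0.89 (0.82 to 0.96) and 0.82 (0.76 to 0.90). In Y nuclei alone they were -0.126, -0.052 and -0.087, and the split by sex and by cluster is given below. Kcnc2 was low in granule nuclei, at 5.64, 4.01, 10.7, 9.96 and 10.1 CPM, with log2 ratios against 5xFAD of 0.80 (0.60 to 0.99), 0.73 (0.52 to 0.93) and 0.74 (0.55 to 0.93), a difference between very low levels. Kcnk13 was higher in the global knockout library, 18.8 against 7.83 CPM (0.89, 0.71 to 1.06). Kcnmb2 also passed there, at 20.8 against 10.6 CPM (0.72, 0.55 to 0.89).

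In CA1, 2 of 50 members were higher and 1 lower in the astrocyte knockout library (all genes 3.87% and 0.359%), 3 of 49 and 1 in the neuron knockout library (4.85% and 0.377%), and 2 of 49 and 0 in the global one (1.02% and 0.23%). Kcnd2 was the lower one, with log2 ratios of -0.61 (-0.62 to -0.59) in the astrocyte and -0.71 (-0.73 to -0.69) in the neuron knockout library, and its CPM given above was lower in all 3 knockout libraries than in either other library. Kcnip3 in CA1 was at 65.9, 61.9, 92.8, 127.7 and 92.1 CPM and passed in the neuron knockout library (0.99, 0.86 to 1.11). There the log2 ratio was 1.256 in Xist and -0.062 in Y nuclei. Kcng1, a silent Kv6 subunit, was at 5.85 CPM in 5xFAD and at 12.5, 11.9 and 12.2 in the astrocyte, neuron and global knockout libraries (log2 ratios 0.69, 0.64 and 0.67), but its wild type value of 9.74 lay nearer to these. Kcns3 was at 28.4 against 15.8 CPM in the neuron knockout library (0.68); split by sex, the log2 ratio was 0.76 for Xist and 0.012 for Y nuclei, which gave 138 UMIs. Kcnip1 was at 1.95 CPM in 5xFAD and at 7.01 and 5.54 in the astrocyte and global knockout libraries (0.79 and 0.60).

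The members' ratios were also set beside gene length. In granule nuclei the median log2 ratio of all genes under 20 kb was 0.22 in the astrocyte and 0.19 in the neuron knockout library, and -0.07 and -0.09 for genes of 300 kb or more. Members of 300 kb or more had medians of -0.32 (11 members) and -0.15 (10), and members under 20 kb 0.19 and 0.15 (16 each). In CA1 the long members had medians of -0.25 and -0.29, beside -0.04 for all long genes in both. In the global knockout library all genes moved little with length (0.04 for short and 0.00 for long genes in granule nuclei), and the long members had medians of -0.04 in granule, 0.01 in CA3, 0.00 in Lhx6-lineage and -0.05 in Adarb2-lineage nuclei. CA1 differed from these, with a median of -0.20 over 11 long members, beside 0.03 for all long genes. Kcnd2, at 514.3 kb, belongs to the long members. The part of gene length in its lower level was not tested. With size factors set to the median ratio of all genes, in place of class totals, the Kcnd2 log2 ratios were -0.81 and -0.95 and those of Kcnip3 in granule nuclei 0.46, 0.73 and 0.78, so 1 of the 3 fell short of the fold.

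In CA3, 2 of 36 members were higher (all genes 4.78%) and 1 lower (0.668%) in the astrocyte, 3 of 37 (5.14%) and 0 (0.779%) in the neuron, and 2 of 43 (1.24%) and 0 (0.37%) in the global knockout library. Kcnip3 was at 37.2, 26.8, 37.3, 86.9 and 37.8 CPM, so the neuron knockout library alone stood out (log2 ratio 1.53, 1.28 to 1.78). That difference was in Xist nuclei (106.8 against 25.3 CPM, log2 ratio 1.88), while Y nuclei were at 27.6 against 27.4 CPM (0.007, with 17 Y nuclei in the neuron knockout library). Kcna4 was at 27.7 against 14.0 CPM (0.79, 0.45 to 1.12) and Kcnh5 at 51.8 against 84.1 (-0.65, -0.87 to -0.43) in the astrocyte knockout library. Kcnn3 was higher in the neuron (17.2 against 8.41 CPM, 0.72) and the global knockout library (16.0, 0.65).

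In the inhibitory classes few members passed. Lhx6-lineage nuclei had 0 of 39 (5.54% higher and 0.84% lower over all genes), 2 higher and 1 lower of 38 (4.24% and 1.27%), and 0 higher and 2 lower of 41 (0.967% and 0.802%). Kcnab2, higher in 5xFAD than in the wild type, was lower again at 27.8 CPM in the neuron (-0.76, -1.11 to -0.41) and 31.5 in the global knockout library (-0.60, -0.88 to -0.32). Kcnq5 in Lhx6-lineage nuclei was at 508.3 CPM in 5xFAD and 308.3 in the global knockout library (-0.71, -0.81 to -0.61). In Adarb2-lineage nuclei 2 of 49 members were higher in the neuron knockout library (4.93%), Kcnh8 at 17.2 against 5.87 CPM (1.03, 0.66 to 1.37) and Kcnip3 at 79.9 against 51.3 (0.59, 0.39 to 0.79), and 0 of 45 and 0 of 47 in the astrocyte (5.55% higher, 0.607% lower) and global ones (0.704% and 0.516%) passed in either direction. In this class 27.4% of nuclei had both Xist and Y-linked UMIs, and Kcnip3 in 5xFAD was at 14.8 CPM in Xist and 29.4 in Y nuclei, below the 51.3 of the whole class; the part of these nuclei in the result was not tested. In subicular nuclei 0 of 46 members passed in the astrocyte knockout library (5.41% and 0.464%), 1 of 44 was higher and 1 lower in the neuron one (4.52% and 0.627%), and 0 of 47 higher and 2 lower in the global one (0.941% and 0.623%). Kcnh5 was the lower member in both of these, at 82.5 CPM in 5xFAD, 46.6 in the neuron (-0.76, -0.99 to -0.54) and 49.6 in the global knockout library (-0.68, -0.88 to -0.49), and Kcnh8 was also lower in the global one (62.9 against 119.9 CPM). The subicular cluster led by Kcnh8 and the other subicular cluster held 62 and 127 nuclei in 5xFAD and 57 and 206 in the global knockout library, and the part of this in the Kcnh8 difference was not tested.

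Glia gave small counts. In oligodendrocytes 3 of 11 members were higher (all genes 3.43%) and 2 lower (3.66%) in the astrocyte, 1 of 10 (3.78%) and 2 (3.09%) in the neuron, and 0 of 9 (1.45%) and 1 (2.53%) in the global knockout library. Kcna1, the Kv1.1 gene described above, was higher in the astrocyte knockout library (0.90, 0.65 to 1.15), in a class that led all others for this gene in each library. Kcnma1 was at 83.7 CPM in the astrocyte (0.93, 0.39 to 1.46) and 72.0 in the neuron knockout library (0.72, 0.20 to 1.25), against 41.7 in 5xFAD. Kcna6 was lower in the global knockout library (-0.68, -1.06 to -0.32). Kcnd2 (97.9 CPM in 5xFAD, 35.3 and 43.0 in the astrocyte and neuron knockout libraries) and Kcnip4 (121.1, 71.9 and 57.0 CPM) were lower there, and their mean levels in oligodendrocytes were 1.39% and 0.845% of those in excitatory neurons, under the 1.94% median of the 9 neuronal genes. With nuclei assigned by marker score the direction turned, to log2 ratios of 1.28 and 0.03 for Kcnd2 and 1.74 and 1.22 for Kcnip4. Kcnma1 was at 4.49% of its excitatory level, between that median and the highest of the 9 (17.0%). The part of neuronal RNA in these ratios was not tested. In precursors 0 of 21 members were higher and 2 lower in the astrocyte (3.06% and 2.63%), 1 and 1 in the neuron (3.17% and 3.01%), and 0 and 0 in the global knockout library (1.43% and 2.52%). Kcnip4 was lower in the astrocyte and neuron knockout libraries (-0.65 and -0.69), but its sign turned without doublet removal (0.96 and 0.81), without nuclei of both Xist and Y-linked UMIs (0.40 and 0.35), as a mean over nuclei (0.14 and 0.07) and, for the astrocyte knockout library, when Kcn genes were kept in the clustering (0.68). Kcnc2 was the higher one (0.86), and turned to -0.08 with marker scores. Kcnh8 in precursors was at 313.2 against 478.2 CPM in the astrocyte knockout library (-0.60, -0.89 to -0.32).

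Astrocytes, the labelled site of 1 knockout, had only 4 members with enough UMIs in each knockout comparison. None passed in the astrocyte knockout library (3.69% and 8.27% of all genes passed upwards and downwards), Kcnn2 was lower in the neuron one (479.7 against 754.6 CPM, -0.65, -1.01 to -0.29; 7.23%), and Kcnd2 was higher in the global one (1420 against 871.3 CPM, 0.70, 0.41 to 0.99; 5.18%). Kcnj10 had too few UMIs there to be compared; its values by library are given above and overlap between groups of libraries. Microglia allowed 3, 3 and 4 members. Kcnq1ot1 was lower in the astrocyte (-0.59, -1.05 to -0.15; 4.33% of all genes higher and 4.81% lower) and neuron knockout library (-1.01, -1.60 to -0.44; 4.68%), and Kcnip4, whose mean level in microglia was 1.28% of that in excitatory neurons, was higher in the global one (1.29; 3.09%), a direction that turned with marker scores (-0.13). Cortical upper-layer nuclei showed the widest spread: 7 of 51 members were higher and 5 lower in the astrocyte, 8 and 10 of 49 in the neuron, and 7 and 5 of 52 in the global knockout library, where 8.92% and 3.01%, 10.1% and 5.06%, and 5.01% and 2.41% of all genes passed. Kcnmb2 in upper-layer nuclei was at 3.15 CPM in the wild type, 0.910 in 5xFAD and 53.0, 31.3 and 35.7 in the knockout libraries. Kcnq5 there was at 2511, 2925, 1543, 1192 and 1796 CPM in the same order. Kcng1 was at 17.8, 6.92, 24.7, 32.2 and 26.8, so its 5xFAD library was below the wild type as well. In deep-layer nuclei 2 of 38 members were higher and 1 lower (5.69% and 1.63%), 2 and 2 of 36 (4.78% and 2.01%), and 1 and 3 of 37 (2.58% and 1.94%), with Kcnn3 higher in all 3 (14.6 CPM in 5xFAD, 44.0, 42.5 and 59.4) and Kcnt2 lower in all 3 (91.8 CPM, and 40.5, 42.5 and 58.6). The upper-layer class had 144 to 448 nuclei per library, and which cortical cells each dissection took was not tested.

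Kcnip3 in granule nuclei was then compared by cluster and by sex. A granule cluster led by Penk and Pappa, genes of activated granule cells, held 4.905% of granule nuclei in the wild type library, 3.725% in 5xFAD, and 22.3%, 26.9% and 33.9% in the astrocyte, neuron and global knockout libraries. Of the 17 activation genes listed, 0 of 11 measured were higher in 5xFAD than in wild type granule nuclei, and 7 of 12, 10 of 13 and 7 of 12 were higher in the 3 knockout libraries, where 3.25%, 3.42% and 1.57% of all genes were. The list holds Penk, Pappa and Col27a1, which also lead the cluster, so it is not independent of the cluster's share. In that cluster Kcnip3 was at 216.0, 242.3, 342.6, 453.5 and 354.5 CPM, in each library above the other granule clusters, which had 111.2, 106.8, 138.1, 115.6 and 127.3. Of 65 members compared between the cluster and the other granule nuclei, 6 were past 1.5-fold higher and 7 lower, beside 3.99% and 4.13% of all genes. The higher ones were Kcnip3 (log2 ratio 1.39), Kcnc2 (1.32), Kcnj2 (1.17), Kcnk1 (0.86), Kcnh4 (0.80) and Kcnip1 (0.74). Kcnip1 was higher in only 3 of 5 libraries and its mean rests on the wild type value of 21.6 CPM, while the other libraries had 1.25 to 7.02. Kcnj2 was at 33.6 and 41.2 CPM in the cluster in the wild type and 5xFAD libraries (8.27 and 6.33 outside it), but at 12.4, 12.4 and 10.96 in the 3 knockout libraries (8.72, 6.35 and 5.70 outside). In the Xist nuclei of the astrocyte knockout library it was at 11.68 inside and 11.72 outside. The lower ones were Kcnh5 (-1.57), Kcng3 (-1.41), Kcnk9 (-1.34), Kcnk2 (-0.90), Kcng2 (-0.84), Kcnn3 (-0.80) and Kcna6 (-0.67). The ranges of Kcng2 overlap: in the wild type library it was at 53.6 CPM inside and 53.4 outside, and in the 3 knockout libraries at 15.4 to 20.1 inside and 54.4 to 63.0 outside. Kcnn3 was likewise at 37.6 CPM inside and 38.1 outside in the wild type library, so its ratio rests on the other 4. Kcnk9 (TASK-3), a leak channel, was at 17.6 CPM (13.2 to 24.0) in the cluster and 52.5 (49.5 to 54.2) outside it, and Kcnd2 at 3821 (2981 to 4590) and 5394 (4800 to 5806); the ranges of both genes do not overlap. No Kcn gene was used to build the clusters, but the cluster was picked for its activation genes, and members were compared with no test.

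**Figure D5:**
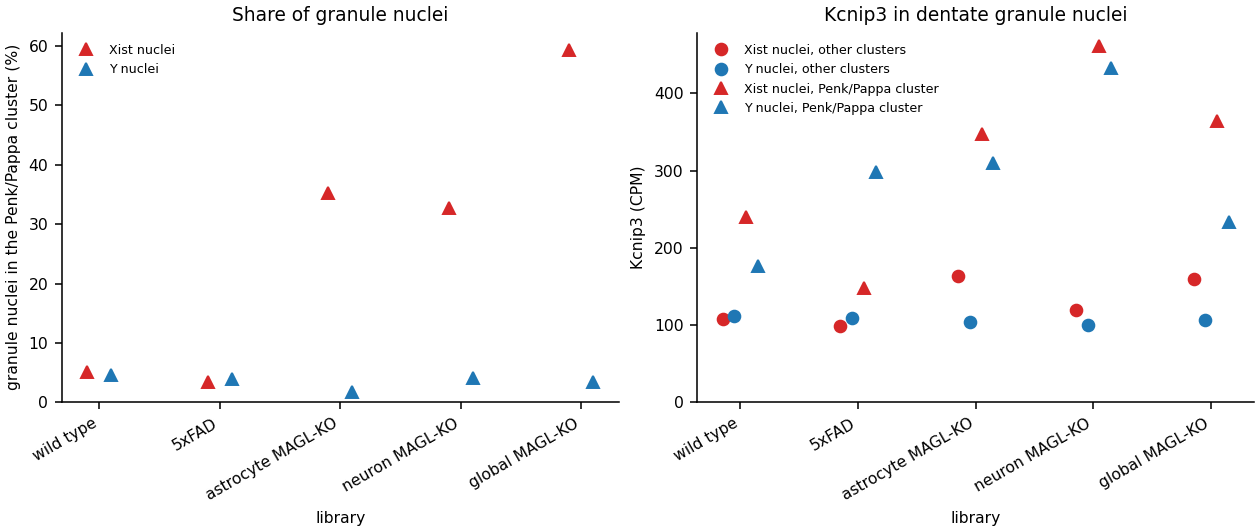
Left, the share of Xist and of Y granule nuclei (percent, y axis) of each library (x axis) that lie in the Penk and Pappa granule cluster. Right, Kcnip3 CPM in that cluster (triangles) and in the other granule clusters (circles), with Xist (red) and Y nuclei (blue) of each library apart. The Y triangles of the astrocyte and neuron knockout libraries rest on 9 and 8 nuclei. The share is 32.7% to 59.4% in the Xist nuclei of the 3 knockout libraries and at most 5.09% elsewhere, and the highest Kcnip3 levels are in the cluster.

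Split by sex, the Xist granule nuclei had Kcnip3 at 114.8 CPM in the wild type, 100.6 in 5xFAD, and 225.7, 238.5 and 279.1 in the astrocyte, neuron and global knockout libraries. The nuclei with Y-linked UMIs had 114.5, 117.6, 107.4, 113.3 and 110.4. The Penk and Pappa cluster held 35.3%, 32.7% and 59.4% of the Xist granule nuclei in the 3 knockout libraries and 1.69%, 4.12% and 3.37% of the Y nuclei, while in the wild type and 5xFAD libraries it held 5.09% and 3.47% of Xist and 4.56% and 3.86% of Y nuclei. Outside the cluster, Kcnip3 in Xist nuclei was at 107.3, 98.8, 164.0, 118.8 and 159.0 CPM and in Y nuclei between 100.2 and 111.4, so in the astrocyte and global knockout libraries the Xist nuclei stood above 5xFAD there too. Without the granule clusters led by Penk or Pappa, the Kcnip3 log2 ratios against 5xFAD were 0.36, 0.11 and 0.24. In CA1 the Xist nuclei had 55.8, 55.3, 96.9, 139.2 and 112.3 CPM and the Y nuclei 71.5, 64.6, 77.6, 61.7 and 65.6. Kcnc2 in granule nuclei, the other member past the fold in all 3, was at 3.72 CPM in the Xist nuclei of 5xFAD and 10.7, 12.1 and 13.5 in those of the knockout libraries, against 4.57 and 4.18, 2.03 and 5.67 in Y nuclei. Its log2 ratios in the astrocyte and neuron knockout libraries were 0.85 and 0.97 in Xist nuclei and -0.06 and -0.44 in Y nuclei, the latter on 77 and 57 UMIs. The labels give no number of animals, so sex and animal cannot be told apart here. Kcnd2 in CA1, by contrast, was lower in Xist (-0.67 and -0.81) and in Y nuclei (-0.51 and -0.39) of the astrocyte and neuron knockout libraries, and Kcnk13 in granule nuclei of the global knockout library was higher in both (0.97 and 0.87). Cut sites at the Kcnip3 start were few in granule nuclei. Xist granule nuclei had 4.85, 3.97, 5.08, 2.79 and 2.57 per 1e6 in the order of libraries used above, beside a mean of 21.0 in cortical deep-layer nuclei. Whether such low values follow the RNA was not tested.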

How the data were processed

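RNA counts and open-chromatin cut-site counts per nucleus, as deposited by the authors, were made with Cell Ranger ARC 2.0.0 on mm10, with Seurat also named, per the submitters' processing notes; the annotation and the strand setting are not given in the sources used here. Nuclei had to have 500 genes or more and no more than 5% mitochondrial UMIs, and doublets were removed by Scrublet score at an assumed 0.8% per 1000 nuclei, since its automatic threshold marked 0 to 2305 nuclei per library. Nuclei were clustered with scanpy 1.11.5 on 2000 variable genes without Kcn genes (40 principal components, 15 neighbours, Leiden resolution 1.0). Clusters were named from listed markers, with naming thresholds set after seeing the data. Cell sums were scaled to CPM of the class, and library ratios were log2 values with 5 CPM added for genes with at least 100 UMIs in both libraries together. Xist or Y nuclei were called from 2 UMIs. Promoter cut sites were those in deposited peaks that overlap a 1000 bp window centred on the midpoint of a gene's listed start interval. This listed start was within 1 base of the gene's 5′ end for 50 of the 84 members and inside the gene for 83. The ratio calculation was tested on simulated data. With 1 library per group no test was made, and the intervals are exact and cover counting error only.

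The members and gene lists were chosen with earlier results of these data known. Genes named in the text were the 3 with the highest ratio to other classes in each class, the 2 highest and the 2 lowest ratios in each comparison, and the 2 with most UMIs in each family; others are named for their role, with their values already seen. Alternatives were other filters, class assignments, scalings, pseudocounts, sexes and left-out libraries. Some members counted in the totals are not reported here by name.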

Additional observations from a re-analysis of the deposited data

Results flagged for a closer look

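Among named ratios past 1.5-fold, with at least 100 UMIs in each sex, 4 had opposite signs in Xist and Y nuclei and intervals that do not overlap, and all 4 were of Kcnip3 against 5xFAD; the difference was not tested. Without the limit to named ratios past that fold and the check of intervals, opposite signs with at least 1 sex past 1.5-fold, and a difference as large, were also seen in other members. In granule nuclei of the global knockout library there were 7 of 48 members (Kcnip3, Kcnh7, Kcnk1, Kcnh5, Kcnk9, Kcng3 and Kcng2), beside 3.946% of all genes. In granule nuclei of the astrocyte and neuron knockout libraries there were 3 of 47 (1.83%) and 3 of 45 (1.569%), with Kcnip3 and Kcnk1 in both, and in CA1 of the neuron knockout library 1 of 39 (2.123%), Kcnip3. Such splits were not confined to these classes or to knockout libraries: Adarb2-lineage nuclei of the global knockout library had 5 of 22 (9.656% of all genes), and precursors in 5xFAD against wild type 3 of 14 (Kcnj3, Kcnip3 and Kcnip1; 6.539%). In granule nuclei of the astrocyte knockout library the log2 ratio was 1.13 (1.01 to 1.24) in Xist and -0.13 (-0.26 to 0.00) in Y nuclei, a difference of 1.25. In granule nuclei of the neuron knockout library it was 1.21 (1.09 to 1.32) and -0.05 (-0.22 to 0.12), a difference of 1.26. In granule nuclei of the global knockout library it was 1.43 (1.32 to 1.54) and -0.09 (-0.20 to 0.03), a difference of 1.51. In CA1 nuclei of the neuron knockout library it was 1.26 (1.07 to 1.45) and -0.06 (-0.40 to 0.27), a difference of 1.32. Other splits were as wide: in CA3 of the neuron knockout library Kcnip3 was 1.88 in Xist and 0.007 in Y nuclei. In Adarb2-lineage nuclei it was 1.70 and -2.78 in the neuron and 1.76 and -1.01 in the global knockout library, on 52 and 64 UMIs in Y nuclei. Both of these are under the minimum of 100 UMIs. The -2.78 lies at the floor set by the 5 CPM added, as the Y nuclei of the neuron knockout library held almost no Kcnip3 UMIs. The size of the Adarb2-lineage splits is therefore not read. All of these comparisons share the 5xFAD library, which had the lowest Kcnip3 level of the 5 in Xist granule nuclei.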

How the results depend on the processing

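No paired analysis was possible because no group has a replicate, and no library could be left out of a comparison between 2 libraries; the levels by class could be recomputed without each library. Members led by an excitatory, an inhibitory or a glial or vascular class numbered 36 to 45, 10 to 17 and 26 to 40 over the alternatives, beside 39, 13 and 32, and without each library in turn 39 to 41, 12 to 13 and 30 to 33. The same class led for 53 of the 84 members in thinned nuclei, 60 with marker scores, 69 to 78 under the other alternatives and 78 to 80 without each library in turn. Promoters highest in the leading RNA class numbered 20 to 25 without each library in turn, beside 24. The counts past 1.5-fold were small and moved with most choices, and the causes were not tested. In granule nuclei the count for 5xFAD against wild type went from 0 to 1 in Y nuclei. For the astrocyte knockout library it went from 2 to 4 with median-of-ratios scaling or 1 CPM added, 5 in Xist nuclei and 0 without the Penk or Pappa clusters. For the neuron knockout library it went from 2 to 5 with median-of-ratios scaling, 6 with 1 CPM added, 5 in Xist nuclei, and 0 in Y nuclei or without those clusters. For the global knockout library it went from 4 to 2 in thinned nuclei, in Y nuclei and without those clusters, and to 11 in Xist nuclei. In CA1 the count for 5xFAD against wild type went from 0 to 1 with marker-score classes and 2 with 1 CPM added or in Xist nuclei. For the astrocyte knockout library it went from 3 to 1 with marker scores or in Y nuclei and 7 in Xist nuclei. For the neuron knockout library it went from 4 to 1 with marker scores, 2 thinned, 7 with 1 CPM added and 0 in Y nuclei. For the global knockout library it went from 2 to 1 with at least 1000 genes, no doublet removal, thinning, median-of-ratios scaling or Y nuclei, 0 with marker scores and 4 in Xist nuclei.

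Of the named ratios past 1.5-fold that could be recomputed, 17 of 50 stayed past it in the same direction with marker-score classes, 6 of 17 in Y nuclei, 23 of 29 in Xist nuclei, 34 of 50 with at least 1000 genes, 39 of 51 as means over nuclei and 1 of 6 without the Penk or Pappa clusters. Under the other alternatives 43 of 50 or 51, 41 of 48, 44 of 51, 6 of 8 and 51 of 51 did. Log2 ratios that changed sign were as follows. With marker-score classes, Kcnmb2 in CA3 was 0.012 and Kcnma1 in microglia -0.76 for 5xFAD against wild type, Kcnd2 in oligodendrocytes was 1.28 and 0.032 and Kcnip4 there 1.74 and 1.22 for the astrocyte and neuron knockout libraries. Kcnc2 in precursors was -0.081 for the neuron and Kcnip4 in microglia -0.13 for the global knockout library. In Y nuclei Kcnip3 was -0.126, -0.052 and -0.087 in granule nuclei of the 3 knockout libraries and -0.062 in CA1 of the neuron one. Kcnh7 in CA3 of the astrocyte knockout library was -0.29 with at least 1000 genes. Kcnip4 in precursors was 0.96 without doublet removal, 0.40 without nuclei of both sexes, 0.68 when Kcn genes were used in clustering and 0.14 as a mean over nuclei for the astrocyte knockout library, and 0.81 without doublet removal, 0.35 without nuclei of both sexes and 0.066 as a mean over nuclei for the neuron one. Kcnd2 in CA1 kept its direction in every alternative run. Alternatives that left a gene with under 100 UMIs gave no value. Of the 13 classes, the vascular, microglial and astrocyte classes held the fewest UMIs in total (189698, 928555 and 1060998), which limits their values.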
